A study of Mus musculus with 5 samples.

Results

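The 10 genes described here are regulators and targets of NRF2, the transcription factor of the antioxidant response: Nfe2l2, Keap1, Bach1, Mafg, Hmox1, Nqo1, Gclm, Gclc, Sqstm1 and Osgin1. They were taken by name from 21887 protein-coding genes. The choice of these genes and of the gene lists below was made with earlier results of these data known. Shares set beside those of all genes are therefore descriptive and test nothing. A BRG1 peak was assigned to a gene when its summit lay in the gene body or within 50 kb of it. No peak fell into the windows of more than 1 of the 10 genes. The assignment is by distance and does not show that a peak acts on the gene.

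Binding of BRG1, the ATPase encoded by Smarca4 that drives SWI/SNF chromatin remodelling complexes, was profiled by ChIP-seq in primary bone marrow-derived macrophages (BMDM). The cells came from WT mice and from mice lacking Baf60a, a subunit of these complexes encoded by Smarcd1, and the 4 groups were untreated WT, untreated KO, oxLDL_WT and oxLDL_KO. The groups named oxLDL received oxidised low-density lipoprotein, a lipoprotein that turns macrophages into foam cells. The dose and duration of oxLDL, the age, sex and number of mice, and the promoter or Cre line behind the knockout are details that the sources used here do not give. Each group is 1 library with 1 peak list, so the differences below have no replicate error to be judged by, and no test was run.

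The lists held 237 peaks in WT, 139 in KO, 9907 in oxLDL_WT and 4668 in oxLDL_KO. Depth is known only through 2 quantities recovered for each peak from the deposited values, its pileup in fragments and its local background. Whether the input library served as the caller's control, and how it would have been scaled, is not stated. The background may therefore come from the input or from the ChIP library, and how closely it follows ChIP depth is not known. The lowest background of a list was 2.70 fragments in WT, 3.84 in KO, 3.76 in oxLDL_WT and 3.42 in oxLDL_KO. Smarcd1 had no summit in its body or within 1 kb in any list, and such a list cannot show whether the gene was deleted. A summit in the body or within 1 kb was found at 12 of 12 macrophage marker genes in oxLDL_WT and 9 in oxLDL_KO, at 0 in WT and at 1, Spi1, in KO. In oxLDL_WT it was found at 0 of 5 neutrophil, 2 of 5 lymphocyte (Cd4 and Ms4a1), 0 of 4 erythroid, 0 of 4 stromal and 1 of 3 dendritic cell (Xcr1) marker genes, and in oxLDL_KO at Ms4a1 alone of these. The erythroid gene Gata1 lies on the X chromosome, where no list has a peak. Over all protein-coding genes the share was 21.6% in oxLDL_WT, 13.1% in oxLDL_KO, 0.621% in WT and 0.315% in KO.

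NRF2 is normally held by KEAP1, an adaptor of the CUL3 ubiquitin ligase, and is degraded. Oxidants and electrophiles, among them oxidised lipids taken up by macrophages, modify KEAP1, and NRF2 then accumulates, pairs with a small MAF protein such as MAFG and binds antioxidant response elements in its target genes. BACH1 competes for the same elements and represses them until heme releases it.

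All 10 genes had at least 1 BRG1 peak in the window in oxLDL_WT, 6 had one in oxLDL_KO, and 0 had one in WT or KO. Taken over every protein-coding gene, a window peak was present at 45.6% in oxLDL_WT, 31.4% in oxLDL_KO, 2.07% in WT and 1.01% in KO. In both oxLDL lists together, the 6 genes compare with 27.5% of all genes. In the untreated lists a count of 0 among 10 genes does not stand apart from these low shares. The nearest WT peak lay 0.233 Mb from Keap1, and for the other 9 genes it lay farther away, up to 9.88 Mb at Hmox1. The nearest KO peak lay between 1.05 Mb (Sqstm1) and 57.3 Mb (Bach1) away.

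The windows held 44 oxLDL_WT peaks covering 22.1 kb and 17 oxLDL_KO peaks covering 6.73 kb. Keap1, Hmox1, Nqo1 and Gclc had window peaks in oxLDL_WT alone, as did 18% of all genes. Among the 9973 genes with an oxLDL_WT window peak, 39.6% had none in oxLDL_KO, a share like the 4 of 10 here. The mean number of peaks per window was 4.4 and 1.7 in the 2 lists, where the mean over all genes was 1.14 and 0.529. Fold enrichment, the authors' ratio of pileup to local background at the summit, ran from 2.62 to 6.09 with a median of 3.91 in oxLDL_WT, and from 2.86 to 4.53 with a median of 3.85 in oxLDL_KO. Over all peaks the medians were 3.75 and 3.85, so the median heights at these genes were near those of their lists. A fold enrichment of at least 5 was reached by 5 of the 44 oxLDL_WT peaks, against 9.79% of that list. In oxLDL_KO it was reached by 0 of the 17, against 8.61%.

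**Figure D1:**
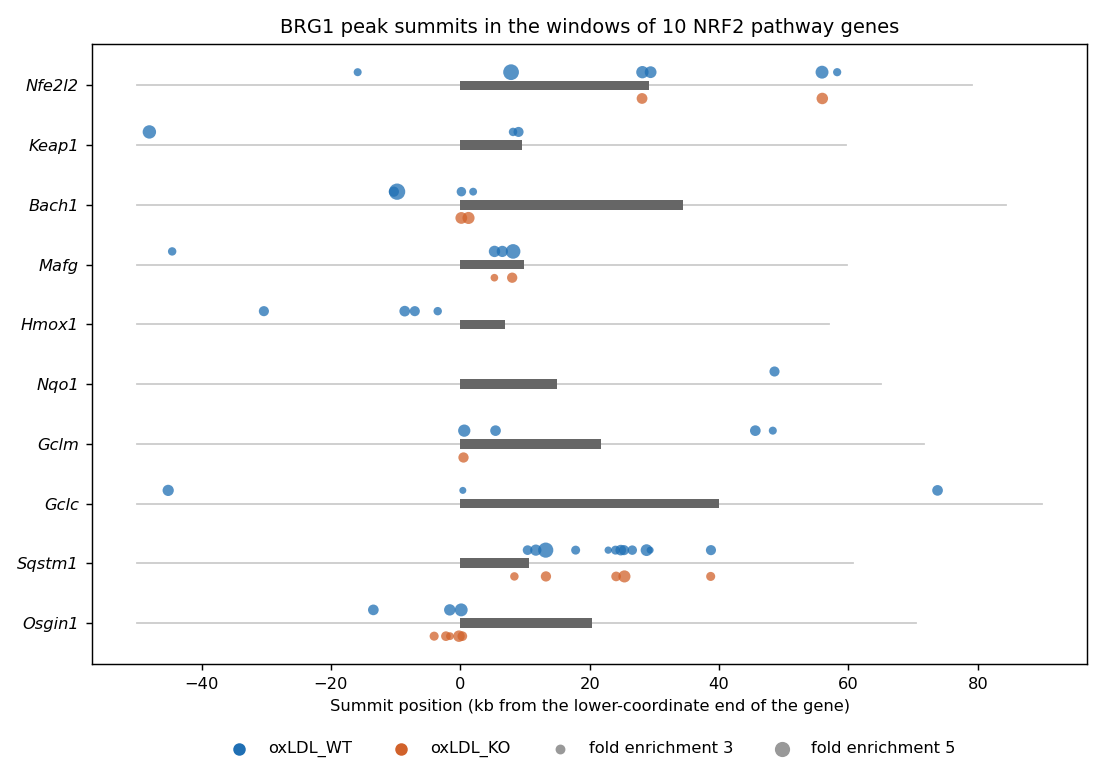
Position of every BRG1 summit in the windows of the 10 genes, in kb from the lower-coordinate end of each gene (grey bar, gene body; thin line, window of 50 kb on each side). Blue points above the line are oxLDL_WT peaks and orange points below it oxLDL_KO peaks, with area growing with fold enrichment; Sqstm1 holds 12 and 5 of them, and Keap1, Hmox1, Nqo1 and Gclc have blue points alone.

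With the window narrowed to the gene body and 1 kb on each side, 8 of the 10 genes had a peak in oxLDL_WT, 6 in oxLDL_KO and 0 in WT or KO, against 21.6%, 13.1%, 0.621% and 0.315% of all protein-coding genes. In both oxLDL lists it was 6 of 10, against 10.3%. These were Nfe2l2, Bach1, Mafg, Gclm, Sqstm1 and Osgin1. Keap1 and Gclc had one in oxLDL_WT alone, as did 11.3% of all genes, and Hmox1 and Nqo1 had none. Of all 4736 genes with an oxLDL_WT peak inside or within 1 kb, 52.4% had none in oxLDL_KO. Of the 44 oxLDL_WT peaks, 15 lay inside a gene of the set or within 1 kb of its ends. Another 5 lay within 1 kb of an end of another protein-coding gene, 7 inside another protein-coding gene and 17 elsewhere. Of the 17 oxLDL_KO peaks the numbers were 9, 3, 0 and 5. Some summits of the last class lay inside annotated genes that are not protein-coding: Gm36556, Gm40190, Gm34654 and Gm32006 in oxLDL_WT, and Gm36556 and Gm32006 in oxLDL_KO. The annotation used gives gene bodies without exons, so exonic and intronic summits cannot be told apart.

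**Figure D2:**
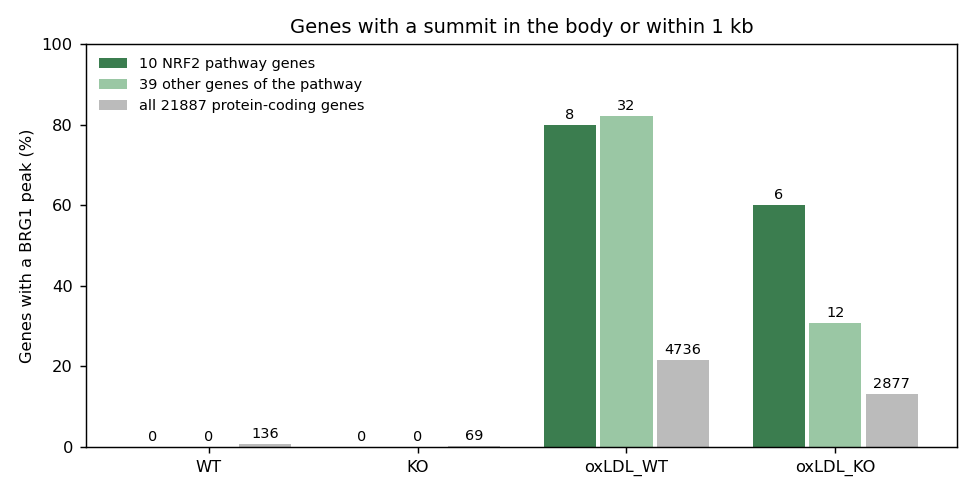
Percentage of genes with a BRG1 summit in the body or within 1 kb, by peak list, for the 10 genes, 39 other genes of the pathway and all protein-coding genes, with the number of genes above each bar. In oxLDL_WT the bars stand for 8, 32 and 4736 genes and in oxLDL_KO for 6, 12 and 2877, while both gene sets are at 0 in WT and KO.

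Nfe2l2, which encodes NRF2, lies on chromosome 2 from 75675513 to 75704663 and is read from the minus strand. It had 6 peaks in oxLDL_WT and 2 in oxLDL_KO. The highest in oxLDL_WT lay inside the gene, 21.3 kb after the RNA start, with its summit at 75683360, a fold enrichment of 5.88 and a pileup of 27 fragments, above 96.6% of the list by fold enrichment. It had no counterpart in oxLDL_KO. At the 5′ end of the gene, peaks flanked the start. One oxLDL_WT summit lay 272 bp before it (75704935, fold enrichment 4.41) and another 1000 bp after it (75703663, 4.62). Only the second was matched in oxLDL_KO, by a peak with its summit at 75703609, 54 bp away, and a fold enrichment of 4.03. A further matched pair lay 26.8 kb upstream, between genes (summits 75731433 and 75731475, fold enrichment 4.83 and 4.30). The last 2 oxLDL_WT peaks were low and unmatched. They lay 29.1 kb upstream (75733773, 3.07) and on the other side of the gene, 540 bp inside an end of the neighbouring RNA-binding protein gene Hnrnpa3 (75659645, 3.0).

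Promoter sequence is shown for 4 regulators and targets with a peak within 1 kb of the listed RNA start: Bach1, Mafg and Gclm, which had one in both oxLDL lists, and Nfe2l2, whose oxLDL_WT peak reached into the window. The 250 bases before the start are from RefSeq on GRCm38.p6, the assembly of mm10, written 5′ to 3′ along the gene. Capitals mark matches to the core of the antioxidant response element, TGACNNNGC, on either strand.
Nfe2l2 (chr2:75704664-75704913, minus strand): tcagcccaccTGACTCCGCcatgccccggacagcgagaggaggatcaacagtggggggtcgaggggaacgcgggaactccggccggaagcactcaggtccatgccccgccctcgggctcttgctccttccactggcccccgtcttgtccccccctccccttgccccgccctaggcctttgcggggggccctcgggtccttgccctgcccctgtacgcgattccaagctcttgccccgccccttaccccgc
Gclm (chr3:122245307-122245556, plus strand): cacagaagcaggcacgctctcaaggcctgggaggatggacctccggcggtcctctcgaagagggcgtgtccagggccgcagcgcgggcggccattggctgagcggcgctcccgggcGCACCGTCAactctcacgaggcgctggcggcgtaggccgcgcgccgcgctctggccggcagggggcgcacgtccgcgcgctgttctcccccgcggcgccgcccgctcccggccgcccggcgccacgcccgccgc
Mafg (chr11:120633548-120633797, minus strand): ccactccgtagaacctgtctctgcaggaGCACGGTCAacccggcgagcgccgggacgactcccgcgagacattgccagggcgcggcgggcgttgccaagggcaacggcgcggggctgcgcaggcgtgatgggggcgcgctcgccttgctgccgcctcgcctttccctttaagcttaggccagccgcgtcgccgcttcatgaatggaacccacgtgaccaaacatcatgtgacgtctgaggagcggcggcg
Bach1 (chr16:87698704-87698953, plus strand): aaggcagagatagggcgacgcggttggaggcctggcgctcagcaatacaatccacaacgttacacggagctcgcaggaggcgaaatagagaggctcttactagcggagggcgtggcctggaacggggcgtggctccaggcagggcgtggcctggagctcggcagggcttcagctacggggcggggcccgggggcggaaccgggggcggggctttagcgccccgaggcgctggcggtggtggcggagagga
RefSeq starts were matched for 8 of the 10 genes (Hmox1 and Gclc were not matched), and 3 of the 8 windows held the core: Nfe2l2, Gclm and Mafg. It was found in 10.2% of all 32851 promoter windows of this length and in 12.4% of the 1353 that an oxLDL_WT peak overlapped. A match is a description of letters and not a site of binding.

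The Nfe2l2 match lay 240 to 232 bases before the start, inside the unmatched oxLDL_WT peak and 36 bp from its summit. The Gclm match lay 134 to 126 bases before the start, on the reverse strand, inside the broad oxLDL_WT peak but 670 bp from its summit. The Mafg match, also reversed, lay 222 to 214 bases before the start and 201 bp beyond the edge of the nearest oxLDL_WT peak. No oxLDL_KO peak covered any of the 3 matches or reached into any of the 8 windows. Of all promoter windows, oxLDL_KO peaks overlapped 1.67%, so few windows of any gene held one. For oxLDL_WT peaks the share was 4.12%, and here they overlapped the windows of Nfe2l2 (171 bases), Gclm (all 250) and Mafg (13) alone of the 8. In the same windows the AP-1 motif TGANTCA matched Osgin1 alone of the 8, against 6.75% of all windows. It can overlap the response element core, and did not in these windows. The PU.1 motif GAGGAAGT (2.44% of all windows) and the palindromic motif of nuclear respiratory factor 1 (3.74%) matched none of the 8.

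Keap1, which encodes the NRF2 inhibitor, lies on chromosome 9 from 21229730 to 21239332 on the minus strand. It had 3 peaks in oxLDL_WT and none in oxLDL_KO. Both peaks inside the gene lay after the start, 599 bp (summit 21238733, fold enrichment 3.77) and 1.45 kb (21237882, 3.16) from it. The first rested on a pileup of 25 fragments over a local background of 5.90, which is higher than the lowest background of the list. The highest peak of the window was 48.1 kb away, inside the phosphodiesterase gene Pde4a (21181661, 5.01).

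Bach1, which encodes the competing repressor, lies on chromosome 16 from 87698954 to 87733346 on the plus strand, with no other protein-coding gene in its window. It carried the highest peak of the whole set, in oxLDL_WT, 9.77 kb upstream of the start, with its summit at 87689181, a fold enrichment of 6.09, a pileup of 28 and a rank of 228 in the list. A second oxLDL_WT peak lay next to it, 10.3 kb upstream (87688679, 3.83). Neither upstream peak had a counterpart in oxLDL_KO. At the start itself both lists had a peak, with summits 169 bp (87699123) and 155 bp (87699109) after it. Fold enrichment there was 3.55 in oxLDL_WT and 4.40 in oxLDL_KO, with pileups of 22 and 27. The oxLDL_KO peak had a −log10 q of 6.72. It was the only oxLDL_KO peak of the set to reach 5, a limit that 19.8% of all oxLDL_KO peaks reached. Further inside the gene the lists had peaks that did not overlap: 1.98 kb after the start in oxLDL_WT (87700938, 2.94) and 1.27 kb in oxLDL_KO (87700223, 4.53).

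Mafg, which encodes a small MAF partner of NRF2 and BACH1, lies on chromosome 11 from 120625117 to 120634955 on the minus strand, with its listed RNA start at 120633547. It had 4 peaks in oxLDL_WT and 2 in oxLDL_KO. Next to the start, an 834 bp oxLDL_WT peak (summit 120633278, fold enrichment 5.46) contained a 457 bp oxLDL_KO peak (120633136, 3.85), 269 and 411 bp after the start. Another pair lay 3.14 and 3.16 kb after the start, with summits 17 bp apart (120630403 and 120630386) and fold enrichments of 4.26 and 2.86. Both oxLDL_KO peaks at Mafg thus fell within oxLDL_WT peaks. The remaining oxLDL_WT peak inside the gene, 1.93 kb after the start (120631613, 4.20), was unmatched, as was one 44.5 kb away inside Arhgdia (120580571, 3.15).

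**Figure D3:**
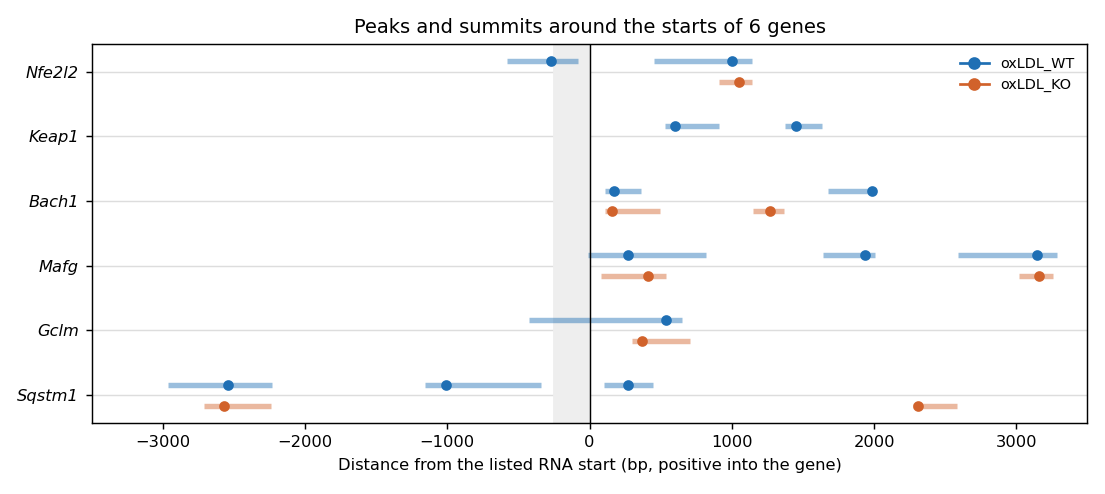
Peaks (bars) and summits (points) within about 3 kb of the listed RNA start of 6 genes, in bp along the gene, with oxLDL_WT in blue and oxLDL_KO in orange. The grey band is the 250 bases before the start; all summits but those 272 bp before Nfe2l2 and upstream of Sqstm1 lie after the start.

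Around the listed starts, 7 oxLDL_WT summits at 6 genes and 3 oxLDL_KO summits at 3 genes lay within 1 kb, and 6 of the 7 and 3 of the 3 lay after the start. None lay within 150 bp of it. Over all genes with a listed start, 13.5% of the 4298 oxLDL_WT and 11.4% of the 2442 oxLDL_KO summits within 1 kb lay within 150 bp, and 67.6% and 72.6% lay after the start. With 7 and 3 summits, these genes cannot be set apart from that pattern. Chromatin was cut by nuclease in this protocol, and its part in the summit positions was not tested.

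Hmox1, which encodes heme oxygenase 1, the enzyme that breaks down heme, is a classical target of NRF2 and BACH1 and is known to have enhancers upstream of the gene. It lies on chromosome 8 from 75093618 to 75100593, and its strand is not in the sequence table used. It had 4 oxLDL_WT peaks and none in oxLDL_KO. No peak touched the gene. Between genes, summits lay 3.49 kb (75090124, fold enrichment 3.15), 7.04 kb (75086581, 3.78) and 8.59 kb (75085025, 3.99) below its lower-coordinate end. The fourth lay 30.4 kb away inside Tom1, an endosomal sorting gene (75063252, 3.78). All 4 had pileups between 14 and 18 fragments over the lowest background of the list.

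Nqo1, which encodes a quinone reductase, lies on chromosome 8 from 107388225 to 107403205 on the minus strand and had the fewest peaks of the set. Its only peak, in oxLDL_WT, lay 33.5 kb upstream and 413 bp inside the ubiquitin ligase gene Wwp2 (107436747, 3.78). No BRG1 peak in any list lay in Nqo1 or within 10 kb of it.

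Gclm and Gclc encode the modifier and the catalytic subunit of glutamate-cysteine ligase, the enzyme of the first step of glutathione synthesis. Gclm lies on chromosome 3 from 122245487 to 122267215 on the plus strand, with its listed RNA start at 122245557. An oxLDL_WT peak 1081 bp wide spanned its start and the whole promoter window shown above, with the summit 540 bp after the start (122246097, fold enrichment 4.59). Of all oxLDL_WT peaks, 5.47% were at least 1 kb wide. The single oxLDL_KO peak at Gclm was 404 bp wide, began after the start and had its summit 371 bp past it (122245928, 3.85). Further oxLDL_WT peaks had no counterpart: one inside the gene 5.38 kb after the start (122250934, 3.98) and 2 beyond its far end, at 23.9 kb (122291095, 3.99) and 26.6 kb (122293797, 3.0).

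Gclc lies on chromosome 9 from 77754535 to 77794489 and had 3 oxLDL_WT peaks and none in oxLDL_KO. The peak at the gene lay 390 bp inside its lower-coordinate end (77754925) and had the lowest fold enrichment of the set, 2.62. It was not the weakest in fragments: its pileup was 27, over a local background of 9.70, 2.58 times the lowest of the list. The other 2 lay 45.2 kb below the gene (77709376, 4.20) and 33.8 kb above it (77828314, 3.99), and no other protein-coding gene lies in the window. Both subunit genes thus had a peak near an end in oxLDL_WT, and Gclm alone had one in oxLDL_KO.

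Sqstm1 encodes p62, the autophagy receptor that binds KEAP1. It lies on chromosome 11 from 50200152 to 50210820 on the minus strand and had the most peaks, 12 in oxLDL_WT and 5 in oxLDL_KO. As many or more were found in the windows of 0.164% of all genes in oxLDL_WT and 1.05% in oxLDL_KO. All but 1 of the 12 oxLDL_WT peaks lay outside the gene, on its 5′ side, in a stretch that reaches over Mgat4b, a glycosyltransferase gene, to Ltc4s, which encodes leukotriene C4 synthase. Some of these peaks are as near to Mgat4b or Ltc4s as to Sqstm1, or nearer.

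Around the Sqstm1 start, oxLDL_WT summits lay 268 bp after it (50210552, 3.62), 1.01 kb before it (50211828, 4.20) and 2.54 kb before it (50213358, 5.67). The last, the highest of the window with a pileup of 26, was matched by an oxLDL_KO peak with its summit 32 bp away (50213390, 3.85). The oxLDL_KO list had no peak at the start, and one 2.31 kb inside the gene (50208512, 3.17) that oxLDL_WT lacked.

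Farther upstream, unmatched oxLDL_WT peaks lay 7.16 kb (50217983, 3.36) and 12.2 kb (50223015, 2.73) before the start. The peak 13.3 kb before it (50224141, 3.36) was matched in oxLDL_KO by a summit 98 bp away (50224239, 3.62). At the end of Mgat4b, 1 oxLDL_KO peak of 950 bp (50225523, 4.53) overlapped 3 oxLDL_WT peaks (50224958, 50225456 and 50226734, with 3.99, 3.78 and 3.55). Here the division into peaks differed between the lists over shared ground. Inside Mgat4b, oxLDL_WT had unmatched peaks at 50228945 (4.41) and 50229500 (2.62). At Ltc4s a matched pair lay 369 and 327 bp beyond the gene end (50238901 and 50238859, 3.78 and 3.39).

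Osgin1 encodes an oxidative stress-induced growth inhibitor. It lies on chromosome 8 from 119425882 to 119446257 on the plus strand, and the listed RNA start, at 119437147, is inside this span. It was the only gene of the set with more peaks in oxLDL_KO (5) than in oxLDL_WT (3), but the peaks covered 2161 bp in oxLDL_KO and 2801 bp in oxLDL_WT. A 1920 bp oxLDL_WT peak, the widest of the set, with its summit 1.63 kb below the lower-coordinate end (119424251, 4.26), overlapped 3 oxLDL_KO peaks (119423659, 119424283 and 119425673, with 3.61, 2.93 and 4.30). A pair at the end itself had summits 138 and 312 bp inside the gene (119426020 and 119426194, 4.83 and 3.62). The remaining peaks were unmatched and belonged in position to Mlycd, the neighbouring malonyl-CoA decarboxylase gene: an oxLDL_KO summit at its end (119421838, 3.39) and an oxLDL_WT summit inside it (119412439, 3.99). No peak lay within 10 kb of the listed start, where the promoter window holds the AP-1 match.

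**Figure D4:**
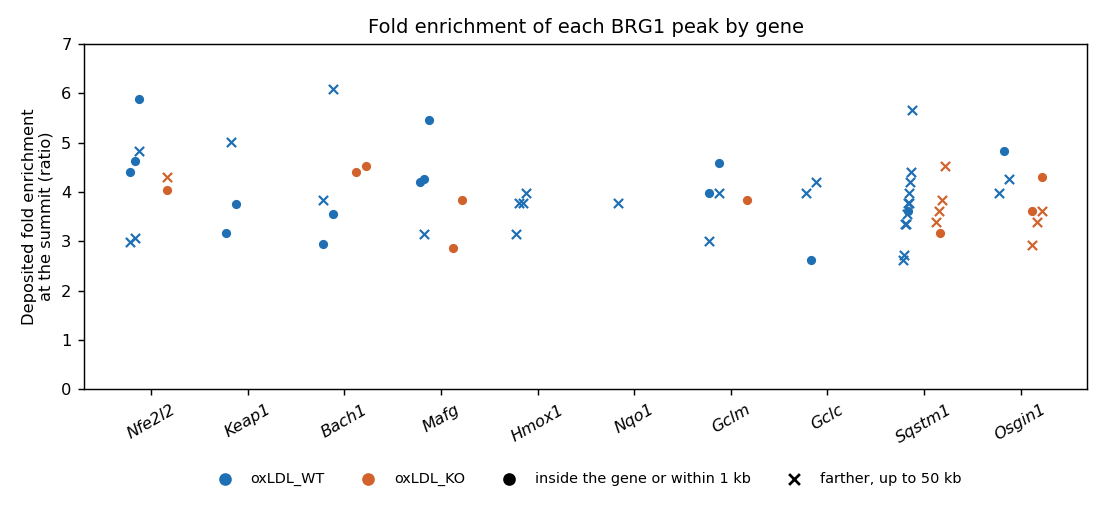
Deposited fold enrichment at the summit (ratio, linear axis from 0) of every peak in the windows, by gene and list; circles lie inside the gene or within 1 kb, crosses farther away. The highest are the Bach1 upstream peak (6.09) and the Nfe2l2 internal peak (5.88) in oxLDL_WT, while no oxLDL_KO peak is above 4.53; values belong to their own list.

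Between the oxLDL lists, 14 of the 44 oxLDL_WT peaks overlapped an oxLDL_KO peak by at least 1 bp (31.8%, exact Clopper-Pearson 95% interval 18.6 to 47.6), against 27.3% of all oxLDL_WT peaks. In the other direction 14 of 17 oxLDL_KO peaks overlapped an oxLDL_WT peak (82.4%, interval 56.6 to 96.2), against 59.6% of all oxLDL_KO peaks. The first share was near that of the whole list, and the interval of the second reaches down to 56.6, below the share of the whole list. These intervals cover counting error only and treat peaks as independent. The matches were not independent, since at Osgin1 and at the end of Mgat4b a wide peak overlapped several peaks of the other list. The intervals therefore do not judge whether the shares differ from those of the whole lists.

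Height went with matching in part. Of the 14 oxLDL_WT peaks with a −log10 q of at least 5, 8 were matched in oxLDL_KO, and of the 30 below it, 6 were, against 46.4% and 20.8% over the whole list. Even so, 3 of the 5 highest oxLDL_WT peaks had no counterpart: those upstream of Bach1, inside Nfe2l2 and inside Pde4a.

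The overlaps made 16 pairs at 6 genes, with summits 14 to 1422 bp apart (median 82.5). The oxLDL_WT peak was the wider in 11 of the 16, where a peak that overlapped several others counted each time. Over all peaks the median width was also larger in oxLDL_WT (368 bp) than in oxLDL_KO (309 bp). The exact 95% Poisson intervals of the 2 pileups overlapped in all 16 pairs. At 14 to 27 fragments these intervals are so wide that any 2 of them overlap, so the overlap cannot show that pileups were alike. The pileups were not scaled to depth.

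**Figure D5:**
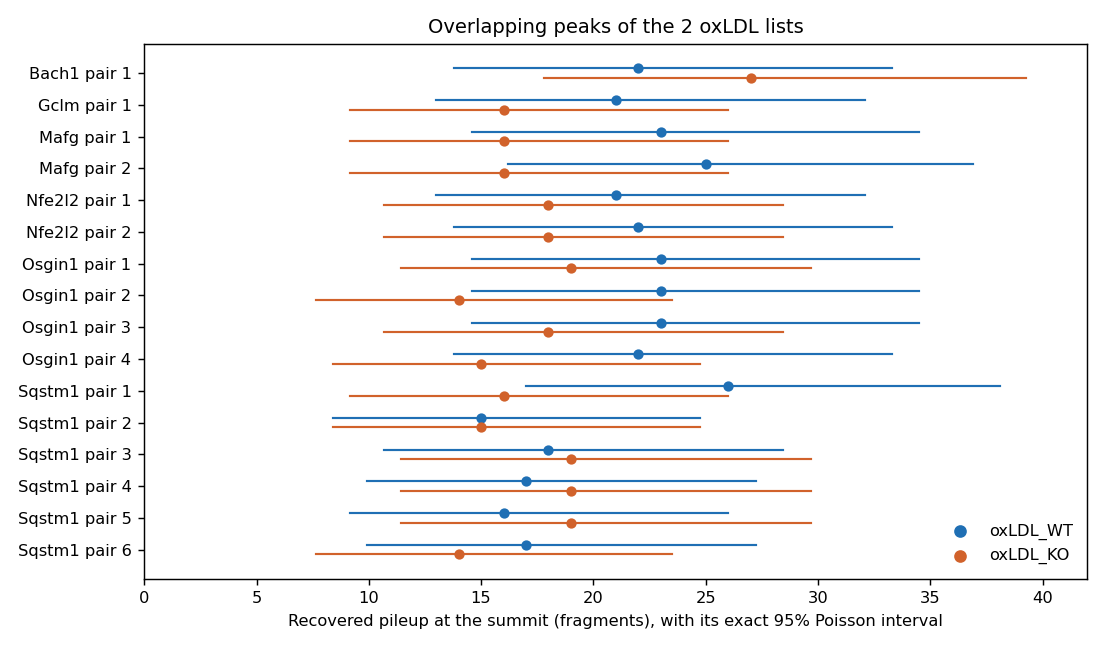
Recovered summit pileup (fragments) of the 16 overlapping pairs, with exact 95% Poisson intervals, oxLDL_WT in blue and oxLDL_KO in orange, pairs numbered by position within a gene. The intervals overlap in all 16 pairs, including Bach1 with 22 and 27 fragments and Sqstm1 pair 1 with 26 and 16.

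The 30 unmatched oxLDL_WT peaks were set against the calling limit of the other list. When pileup and background were scaled by the ratio of the lowest backgrounds, taken as relative depth, 28 of the 30 would have a −log10 p of at least 3.96, the lowest value that the oxLDL_KO list holds, and 96.3% of all oxLDL_WT peaks would. At the same enrichment, 31 of the 44 peaks would pass the WT limit of 5.13 and 37 of the 44 the KO limit of 5.33, compared with 55.5% and 80.2% of all oxLDL_WT peaks. A summit is the highest point of its peak, which tends to raise these counts. The p limits also belong to each list as called, since the lists end at like −log10 q values (1.01 to 1.07) but unlike −log10 p values. The counts are therefore not bounds. A local background above 5 times the lowest of its list was found at 51 of 237 WT and 48 of 139 KO peaks. In oxLDL_WT it was found at 58 of 9907 peaks and in oxLDL_KO at 83 of 4668. How well the antibody worked in each library is not known from peak lists.

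Of 39 other genes of the pathway, 32 had a peak in the body or within 1 kb in oxLDL_WT (82.1%), 12 in oxLDL_KO (30.8%) and 0 in WT or KO, and 11 had one in both oxLDL lists. With the window of 50 kb the counts were 36 and 21. The shares of all genes are given above. One of the 39, G6pdx, lies on the X chromosome, where no list has a peak. The oxLDL_WT share was thus near that of the 10 genes, while the oxLDL_KO share was lower than their 6 of 10. A share of 10 genes is coarse, and whether the oxLDL_KO shares differ was not tested.

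The 6 with the highest lower value in both lists included Abcc1, which encodes a glutathione-conjugate exporter, with a highest fold enrichment of 5.18 in oxLDL_WT and 5.52 in oxLDL_KO. Maff, another small MAF gene, had 4.62 and 4.67, and Prdx1, a peroxiredoxin gene, 4.20 and 3.85. The glutathione transferase gene Gstm1 had 4.20 and 3.85, Nfe2l1, which encodes a relative of NRF2, 3.78 and 3.85, and the carbonyl reductase gene Cbr3 3.99 and 3.62. At all of these but Nfe2l1 a peak of one list overlapped a peak of the other. In oxLDL_WT alone, the highest were the biliverdin reductase genes Blvra (6.51) and Blvrb (4.60), the scavenger receptor gene Cd36 (5.25) and Trim16 (5.25). Ferritin light chain, Ftl1, was the single gene with such a peak in oxLDL_KO alone (3.39).

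By window counts over the 4 lists, the pathway genes nearest to Sqstm1 were Fth1, Prdx1 and Gpx4, with summed differences of 3, 8 and 9 peaks. Fth1, which encodes ferritin heavy chain, had 13 window peaks in oxLDL_WT and 3 in oxLDL_KO, but none in the body or within 1 kb. Prdx1 had 8 and 1, and the lipid hydroperoxide reductase gene Gpx4 4 and 4.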

How the data were processed

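BRG1 ChIP-seq peak lists of 4 libraries were used, 1 per group, with groups taken from the sample titles; the input library was not analysed here. Chromatin was prepared with an enzymatic kit and sequenced as paired ends, per the labels' protocols. Per the submitters' processing notes, the build was mm10 and the tools were MACS3, Bowtie2, Trimmomatic 0.33 and bcl2fastq 2.17, with no roles or parameters. The authors deposited for each peak a fold enrichment (a ratio of pileup to local background), −log10 p and −log10 q values, a whole-number score made from the −log10 q and a summit offset.

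Positions are 1-based. Pileup and background were solved from fold enrichment (pseudocount 1) and the Poisson tail. With a tolerance of 2% of the −log10 p step between whole pileups, the solution was whole for 97.12% (KO) to 99.99% (oxLDL_WT) of a list. The step was tested on simulated data. Genes came from the RefSeq table on GRCm38.p6. Overlap meant at least 1 bp. The gene table has no strand, so starts came from the RefSeq promoter table.

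The members and the gene lists were chosen with earlier results of these data known. All 10 genes are named. Of the 39 other pathway genes the rule names up to 6 with a peak within 1 kb in both oxLDL lists, by the lower fold enrichment, up to 4 in 1 list alone, by fold enrichment, and the 3 with window counts nearest to the gene with the most peaks. Ftl1 and G6pdx were named after their values were seen. Alternatives varied the q and p limits, the window, the background and the overlap rule. Python 3.11.15, numpy 2.4.6, scipy 1.17.1, pandas 2.3.3 and matplotlib 3.10.9 were used.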

Additional observations from a re-analysis of the deposited data

How the results depend on the processing

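Under 8 alternatives, 30 recomputed values stayed within 1.5 times the reported count or within the 95% interval of the reported share, and 10 moved. The counts of 0 in WT and KO are left out of these numbers, since the alternatives only remove peaks and cannot change them. With −log10 q held to 5 or more, the oxLDL_WT peaks numbered 14 and the oxLDL_KO peaks 1, at 1 gene (Bach1), and the matched shares were 0% in both directions, because both partners of a pair then had to pass. In oxLDL_WT 7 genes kept a peak at that limit. The limit kept 31.8% of the oxLDL_WT and 5.88% of the oxLDL_KO window peaks, against 25.4% and 19.8% of all peaks of these lists. With a window of 10 kb there were 23 oxLDL_WT peaks, and with 1 kb 15 oxLDL_WT and 9 oxLDL_KO peaks, since fewer positions count. When overlap had to cover 50% of each peak, the matched shares were 11.4% of oxLDL_WT and 29.4% of oxLDL_KO peaks. With summits at most 250 bp apart they were 27.3% and 70.6%. No peak of the set was removed by the limit on local background. A median pileup of 18 fragments in oxLDL_WT and 16 in oxLDL_KO limits what a missing peak can show. No paired analysis was possible because each group has 1 library.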
